A study of Rattus norvegicus with 6 samples.

Results

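N-glycan genes were read in LN4D6, a line of rat mammary tumour cells, with and without CREB3L1. The set holds 40 genes chosen by name for glycan assembly, transfer, trimming and glycoprotein quality control, and every gene whose symbol is Alg followed only by digits, of which 10 had a probe set. Of these 50 genes 48 were measured by at least 1 probe set annotated with that symbol alone, among 14217 genes measured in all. Gfpt1 and Uap1 were not analysed here, Uap1 because its probe set is shared with Uap1l2. The study compared 3 samples of LN4D6 cells transfected with CREB3L1 with 3 samples of untransfected LN4D6 cells, all of the same line. CREB3L1 is a transcription factor of the endoplasmic reticulum (ER) membrane that is released by proteolysis. The labels give no empty-vector group, no time after transfection, no statement on clones and none on separate cultures, so the spread behind every p-value is that among these samples and may be technical.

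N-glycosylation begins on dolichol, a lipid of the ER membrane, on which a branched glycan is built from activated sugars by the ALG enzymes. Oligosaccharyltransferase moves the glycan to asparagines of proteins entering the ER. Glucosidases and mannosidases then trim it while lectins and a glucosyltransferase test whether the protein has folded, and Golgi enzymes add branches and caps. Tumour cells are known for changed Golgi branching, fucosylation and sialylation.

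Each sample was read on an Affymetrix 3′ expression array, and all values are log2 RMA values as the authors deposited them. Differences are CREB3L1 minus untransfected on that scale, given with limma's standard error, from a fit over 31042 probe sets with Benjamini-Hochberg adjustment and a threshold of 0.05. Where a gene had several probe sets, the one brightest on average over the 6 arrays stood for it. Log2 values under 5 were taken as background, and 40 of the 48 measured genes had a group mean above it. Means are given with the SD over 3 arrays per group.

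CREB3L1 replicate 3 stood apart from the other arrays. Its correlation with them over all probe sets was 0.984 to 0.989, against 0.996 to 0.999 among the other 5 arrays, and its 3′ Gapdh control exceeded the 5′ control by 4.77, against -0.16 to -0.10 on the others. For the dap spike control the gap was 6.44 on CREB3L1 replicate 3, 5.47 on untransfected replicate 3 and 2.35 to 3.28 on the other 4 arrays. Differences are therefore given with all 6 arrays and, for many members, also without CREB3L1 replicate 3. The rat Creb3l1 probe set read 3.38, 3.42 and 3.36 in CREB3L1 cells, against 3.34, 3.38 and 3.37 in untransfected cells, below background throughout, and checks neither label since the construct's sequence is not given in the sources used here. Of the 8 epithelial markers measured only Krt8 was above background, while Krt18, Krt19, Krt7, Epcam, Cdh1, Cldn4 and Esrp1 were below it in both groups. Of 5 basal markers Krt5, Krt14 and Acta2 were above background and Krt17 and Myh11 below it. Of 8 fibroblast or mesenchymal markers Vim and Col3a1 were above it, and Col1a1, Col1a2, Pdgfra, Pdgfrb, Dcn and Lum below it. All 9 endothelial, leukocyte and adipocyte markers were below it, and none of the 30 markers passed the test.

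Mlec was the only member that passed the test with all 6 arrays. It encodes malectin, an ER lectin that binds glucosylated N-glycans and associates with the ribophorin I subunit of oligosaccharyltransferase. Of the 48 measured members 1 was higher and 0 were lower in CREB3L1 cells by limma's adjusted p, where 0.577% of all measured genes were higher and 1.52% lower. A single call in 48 genes says nothing about the set as a whole. At an unadjusted p below 0.05 there were 11 members, 7 with positive and 4 with negative differences, which is 14.6% and 8.33%, where 6.05% and 7.99% of all measured genes were. A larger share of the members than of all genes was above background. Among genes above background the shares were 15% and 10% of members, against 10.6% and 13% of all such genes. The median difference over the 48 members was 0.07, against -0.01 over all measured genes. Without CREB3L1 replicate 3 it was 0.03, against -0.0. Above background the medians were 0.09 for members and 0.01 for all such genes, and 0.01 and -0.01 without CREB3L1 replicate 3. Leaving out that array gave 2 members higher and 0 lower, where 2.02% and 3.7% of all genes were called.

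Mlec read 9.55, 9.79 and 9.96 in CREB3L1 cells, against 8.49, 8.40 and 8.47 in untransfected cells. The lowest CREB3L1 array lay above the highest untransfected array by far more than the spread within either group. The difference was 1.31 ± 0.11 (2.48-fold, 95% interval 1.04 to 1.58, adjusted p = 0.00947), and 1.21 ± 0.08 without CREB3L1 replicate 3 (adjusted p = 0.00389). In whole cultures, more transcript per cell and more cells with the transcript cannot be told apart. The second Mlec probe set read 8.24, 8.42 and 5.87 in CREB3L1 cells, against 7.18, 6.81 and 6.82 in untransfected cells. CREB3L1 replicates 1 and 2 were above every untransfected array, and CREB3L1 replicate 3 was below every one. This probe set gave 0.57 ± 0.72 with 6 arrays (adjusted p = 0.9998) and 1.40 ± 0.13 without that array (adjusted p = 0.0110).

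The Mlec call was lost without any 1 untransfected array, where the adjusted p was 0.0563 to 0.0662, and without CREB3L1 replicate 2 (0.0629), while the difference stayed between 1.21 and 1.42 in each of the 6 leave-one-out fits. It was also lost in a test without variance moderation (0.0793) and with the mean of both probe sets (0.94 ± 0.32, adjusted p = 0.374).

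**Figure D1:**
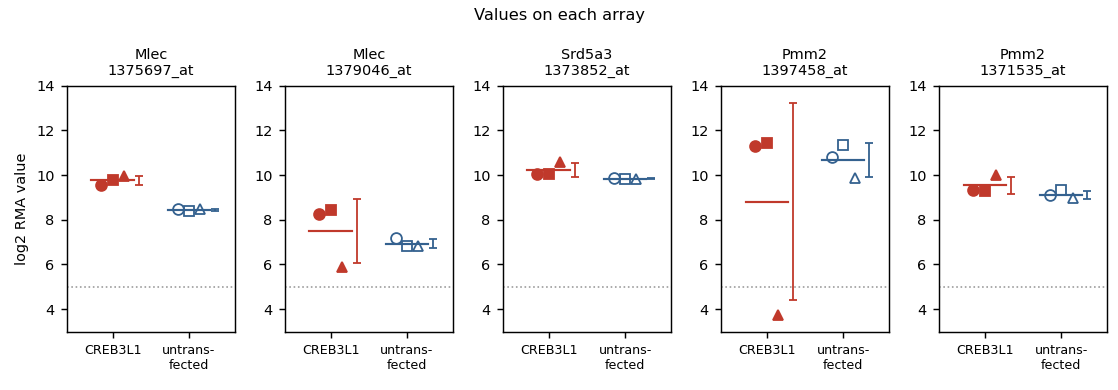
Log2 RMA values on each array for both Mlec probe sets, the Srd5a3 probe set and both Pmm2 probe sets, CREB3L1 arrays at left in filled red and untransfected arrays at right in open blue (circle, square and triangle are replicates 1, 2 and 3, lines are means, bars are SD with n = 3, and the dotted line is the background level of 5). CREB3L1 replicate 3 reads highest of all arrays on the first Mlec probe set (9.96) and on the second Pmm2 probe set (10.00), and lowest on the other probe set of each gene (5.87 and 3.73).

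The promoter of Mlec, the gene that passed the test, and that of Srd5a3, which passed it without CREB3L1 replicate 3, are shown because CREB3L1 belongs to a family of bZIP factors that bind ER stress and cyclic AMP response elements. The windows run from 250 bases before to 50 bases after the gene start, from RefSeq on build GRCr8, at chr12:47118668-47118967 on the plus strand for Mlec and chr14:32414924-32415223 on the minus strand for Srd5a3. Capitals mark CCAAT and CCACG, the outer parts of the ER stress element, and TGACG, a part of the cyclic AMP response element, on either strand.
Mlec: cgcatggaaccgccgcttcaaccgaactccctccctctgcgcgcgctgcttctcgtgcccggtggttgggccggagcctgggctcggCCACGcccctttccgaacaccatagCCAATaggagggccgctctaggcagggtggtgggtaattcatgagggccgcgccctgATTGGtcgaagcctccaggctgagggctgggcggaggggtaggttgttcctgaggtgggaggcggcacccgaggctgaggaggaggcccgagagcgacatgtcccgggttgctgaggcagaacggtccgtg
Srd5a3: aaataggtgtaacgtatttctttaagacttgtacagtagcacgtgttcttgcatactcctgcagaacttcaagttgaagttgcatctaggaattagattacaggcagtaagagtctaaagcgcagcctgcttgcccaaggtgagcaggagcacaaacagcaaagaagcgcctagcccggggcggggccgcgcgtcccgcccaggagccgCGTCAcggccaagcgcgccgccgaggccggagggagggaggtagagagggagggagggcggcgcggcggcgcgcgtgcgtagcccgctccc

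The Mlec window held CCACG at 163 bases before the gene start and CCAAT, in forward and reverse orientation, at 138 and 81 bases before it. The Srd5a3 window held TGACG in reverse orientation at 41 bases before the start. Promoter windows were matched for 45 of the 48 members. The full ER stress element ERSE, its second form ERSE-II, the unfolded protein response element core TGACGTGG and the palindromic cyclic AMP response element TGACGTCA, searched on both strands, were found in 0 of the 45 windows. Among 19005 promoters of protein-coding genes these letters were found in 0.0947%, 0.0684%, 0.631% and 2.22%, which for 45 windows comes to few or none. The short forms are common. CCACG was found in 48.9% of the member windows, 44.3% of the windows of all 11700 measured genes with one and 36.2% of all windows. TGACG was found in 31.1%, 29.2% and 24.2%, and CCAAT in 35.6%, 37.3% and 38.4%. TGACG lies within both the unfolded protein response core and the palindromic element, and CCACG within both ER stress elements. A match is a description of the letters in the window, and their absence says only that they are not in it.

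Among the other proteins of glucose trimming and folding control, no transcript passed the test. Mogs, glucosidase I, which removes the outermost glucose, read 10.71, 10.66 and 11.62 in CREB3L1 cells, against 10.61, 10.54 and 10.64 in untransfected cells. The groups did not overlap, yet CREB3L1 replicates 1 and 2 lay close to the untransfected arrays, and the difference of 0.40 ± 0.27 was 0.09 ± 0.04 without replicate 3 (adjusted p = 0.938 and 0.502). Ganab, the catalytic subunit of glucosidase II, read 10.91, 10.99 and 11.73 in CREB3L1 cells, against 10.90, 10.94 and 11.16 in untransfected cells. Its difference of 0.21 ± 0.24 was -0.05 ± 0.09 without replicate 3, the array with the highest value. Its lectin-like partner Prkcsh differed by -0.01 ± 0.07, and by -0.08 ± 0.05 without that array. Uggt1, the glucosyltransferase that marks misfolded glycoproteins, read 2.36 to 2.47 on all arrays, below background. The 95% intervals of Mogs, Ganab and Prkcsh all included 0, with upper ends at 1.09, 0.81 and 0.16.

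The dolichol genes held the second member called without CREB3L1 replicate 3. Srd5a3, the polyprenol reductase that makes dolichol, read 10.06, 10.07 and 10.61 in CREB3L1 cells, against 9.86, 9.83 and 9.84 in untransfected cells. All 3 CREB3L1 arrays were above all untransfected arrays, with replicate 3 farthest away. The difference was 0.40 ± 0.16 with 6 arrays (adjusted p = 0.509), and 0.22 ± 0.03 without replicate 3 (95% interval 0.14 to 0.31, adjusted p = 0.0347). It was 0.22 ± 0.05 without replicate 3 of both groups, with an adjusted p of 0.0819, so this call rested on which arrays were kept.

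Dolk, the kinase that forms dolichol phosphate, read 9.29, 9.29 and 9.56 in CREB3L1 cells, against 9.11, 9.05 and 9.15 in untransfected cells. Alg5, which makes dolichol phosphate glucose, read 11.59, 11.57 and 12.01 in CREB3L1 cells, against 11.51, 11.41 and 11.34 in untransfected cells. For both genes the CREB3L1 arrays lay above all untransfected arrays, at differences of 0.28 ± 0.09 and 0.30 ± 0.13 that did not pass the test (adjusted p = 0.350 and 0.604). They were 0.19 ± 0.04 and 0.16 ± 0.06 without CREB3L1 replicate 3 (adjusted p = 0.114 and 0.286).

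The genes for making and using dolichol phosphate mannose lay the other way or overlapped. Dpm1, the catalytic subunit of the synthase, read 12.28, 12.19 and 12.35 in CREB3L1 cells, against 12.53, 12.41 and 12.42 in untransfected cells, a difference of -0.18 ± 0.06 (adjusted p = 0.378). Dpm2, a regulatory subunit, read 10.21, 10.14 and 9.79 in CREB3L1 cells, against 10.30, 10.27 and 10.26 in untransfected cells. Mpdu1, which is needed for the use of dolichol-linked mannose and glucose, read 4.86, 4.45 and 4.34 in CREB3L1 cells, all below background, against 5.13, 5.33 and 4.88 in untransfected cells. The groups did not overlap for these 3 genes, and none passed the test. Without CREB3L1 replicate 3 the differences were -0.21 ± 0.06 for Dpm1, -0.10 ± 0.04 for Dpm2 and -0.46 ± 0.18 for Mpdu1, against -0.18 ± 0.06, -0.23 ± 0.12 and -0.56 ± 0.18 with all arrays. Dpm3, which tethers the synthase to the membrane, overlapped between groups at 0.15 ± 0.16, and at -0.02 ± 0.06 without that array.

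Of the 7 dolichol genes, 3 were higher and 3 lower in CREB3L1 cells without overlap of the groups. Over all 48 members 10 were higher and 4 lower without overlap, which is 20.8% and 8.33%, where 9% and 10.7% of all measured genes were. Pgm3, below background, is among the 10. Above background the shares were 22.5% and 10% of members, against 14.7% and 16.5% of genes. Of the 14 members without overlap, 1 passed the test, and 6 of the other 13 are the dolichol genes named here.

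**Figure D2:**
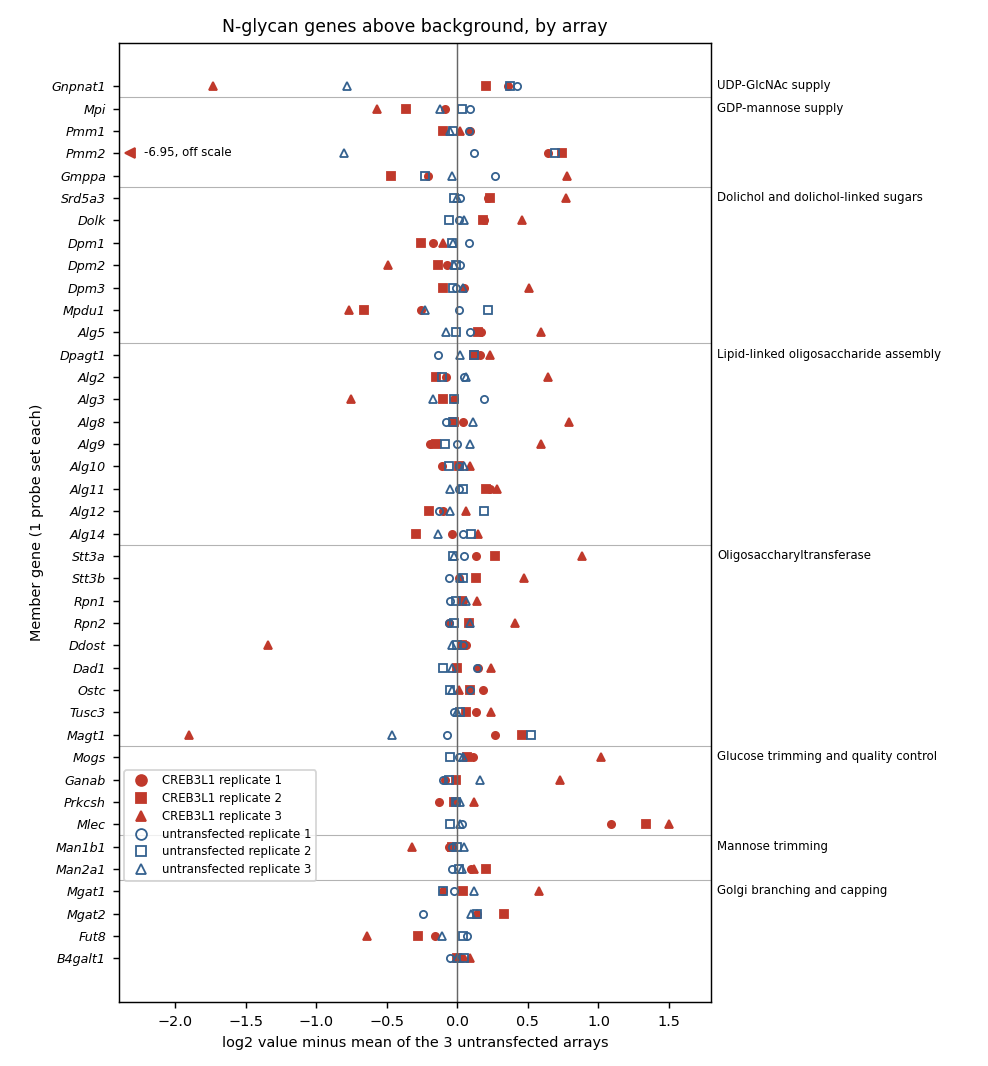
Log2 value of each array minus the mean of the 3 untransfected arrays for the 40 N-glycan genes above background, 1 probe set each, grouped by role, with CREB3L1 arrays in filled red and untransfected arrays in open blue. All 3 CREB3L1 arrays of Mlec stand clear of the untransfected arrays, and for most other genes the red triangle of CREB3L1 replicate 3 lies farthest out, with the Pmm2 value at -6.95 off the scale.

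Oligosaccharyltransferase was measured in 9 of its subunit genes, all above background. Of these 0 passed the test by limma in either direction with or without CREB3L1 replicate 3. Among all genes above background 1.02% were higher and 2.61% lower with all 6 arrays, and 3.59% and 6.46% without that array. With all 6 arrays 1 subunit gene had an unadjusted p below 0.05, which is 11.1%, against 23.6% of genes above background. The gene was Tusc3, an oxidoreductase subunit of the complex that carries STT3B. It read 12.88, 12.82 and 12.99 in CREB3L1 cells, against 12.73, 12.78 and 12.76 in untransfected cells. The difference was 0.14 ± 0.05 (95% interval 0.01 to 0.27, adjusted p = 0.461), and 0.10 ± 0.04 without replicate 3. Stt3a, the catalytic subunit of the complex that acts as proteins enter the ER, read 9.04, 9.18 and 9.78 in CREB3L1 cells, against 8.96, 8.87 and 8.88 in untransfected cells. The groups did not overlap for Tusc3 and Stt3a, while the other 7 subunit genes overlapped. Higher without overlap were thus 22.2% of the 9, against 14.7% of all genes above background. The Stt3a difference of 0.43 ± 0.20 (adjusted p = 0.662) was 0.20 ± 0.06 without replicate 3 (adjusted p = 0.183).

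The other subunits were read with errors of different size. Rpn1, which encodes ribophorin I, differed by 0.07 ± 0.05 and Ostc by 0.09 ± 0.07, with 95% intervals of -0.05 to 0.19 and -0.07 to 0.26. Rpn2, ribophorin II, differed by 0.14 ± 0.13, Dad1 by 0.13 ± 0.09 and Stt3b, the catalytic subunit that also acts on skipped sites, by 0.20 ± 0.12, with 0.28 ± 0.19 on its second probe set. Ddost read 12.79, 12.76 and 11.40 in CREB3L1 cells, against 12.77, 12.73 and 12.69 in untransfected cells, so that replicate 3 alone was low, and the difference of -0.42 ± 0.40 was 0.04 ± 0.04 without it. Magt1, the other oxidoreductase subunit, read 10.38, 10.57 and 8.21 in CREB3L1 cells, against 10.04, 10.63 and 9.65 in untransfected cells, with the lowest value of each group on its replicate 3. Its difference of -0.39 ± 0.70 was 0.37 ± 0.29 without CREB3L1 replicate 3. With all 6 arrays 7 of the 9 differences were positive. Without CREB3L1 replicate 3 the differences of the 9 subunits ran from 0.01 to 0.37 with a median of 0.08. All 9 were positive, where 49.9% of all measured genes were, and the 9 genes share the same 5 arrays, so they do not count as 9 separate observations. Of 3 further subunit genes on the list of other pathway genes, Krtcap2 gave -0.04, Tmem258 0.05 and the 2 probe sets of Ost4 -0.04 and 0.05 without that array.

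In the assembly of the glycan on dolichol, 0 of 10 genes passed the test, where 0.577% of all measured genes were higher and 1.52% lower. An unadjusted p below 0.05 was found for 1, Alg11, which is 10%, where 14% of all measured genes had one. Above background the shares were 11.1% and 23.6%. Alg11, a mannosyltransferase of the cytosolic face of the ER, read 11.88, 11.84 and 11.93 in CREB3L1 cells, against 11.65, 11.68 and 11.60 in untransfected cells. The groups were tight and separate, replicate 3 included, with a difference of 0.24 ± 0.04 (1.18-fold, 95% interval 0.14 to 0.34, adjusted p = 0.0792). Without CREB3L1 replicate 3 it was 0.21 ± 0.04 (adjusted p = 0.0653). Arrays were also weighted by their closeness to their own group in these same data. The weights ran from 0.17 for CREB3L1 replicate 3 to 2.77 for CREB3L1 replicate 2. With them Alg11 passed the test at 0.21 ± 0.03 (adjusted p = 0.0312), the only 1 of 16 settings where it did. The adjusted p by limma was 0.432 with a mean-variance trend, 0.175 with dim probe sets left out and 0.125 without replicate 3 of both groups.

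Dpagt1, which starts the glycan and is the target of tunicamycin, read 10.77, 10.73 and 10.84 in CREB3L1 cells, against 10.47, 10.73 and 10.63 in untransfected cells, a difference of 0.17 ± 0.08 (adjusted p = 0.625). The remaining 7 genes above background overlapped between groups, with differences of -0.29 for Alg3 and 0.27 for Alg8 at the ends and Alg2, Alg9, Alg10, Alg12 and Alg14 between them. On the 5 arrays other than CREB3L1 replicate 3, Alg3 gave -0.06 and Alg8 0.01, and the ends were -0.17 for Alg9 and Alg14 and 0.01 for Alg8. For Alg2, Alg8 and Alg9, CREB3L1 replicate 3 read 10.41, 10.94 and 9.32, above all other arrays. Alg1, the first mannosyltransferase, lay below background on all arrays at 4.39 to 4.64.

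Sugar supply was covered thinly. For UDP-N-acetylglucosamine, Gnpnat1, an acetyltransferase, read 9.84, 9.68 and 7.74 in CREB3L1 cells, against 9.89, 9.84 and 8.69 in untransfected cells. As with Magt1, replicate 3 of each group was its lowest array, and the difference was -0.39 ± 0.67 (adjusted p = 0.9998). Its sign turned without CREB3L1 replicate 3, to 0.28 ± 0.39, and without replicate 3 of both groups it was -0.11 ± 0.07. Pgm3, a mutase of the same route, was below background at 2.09 to 2.92 on the brighter of its probe sets.

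For GDP-mannose, Mpi, the isomerase that draws mannose phosphate from glycolysis, read 9.37, 9.10 and 8.89 in CREB3L1 cells, against 9.55, 9.49 and 9.35 in untransfected cells. The groups met at a single array, and the difference was -0.34 ± 0.13 (adjusted p = 0.498), or -0.23 ± 0.10 without CREB3L1 replicate 3. Pmm1, a phosphomannomutase, differed by 0.01 ± 0.06, and Gmppa, a regulatory subunit of GDP-mannose pyrophosphorylase, by 0.03 ± 0.35. Gmppa read 7.90, 7.64 and 8.89 in CREB3L1 cells, against 8.38, 7.88 and 8.07 in untransfected cells, and without CREB3L1 replicate 3, the highest array, it gave -0.34 ± 0.16 (adjusted p = 0.486). Gmppb, the catalytic subunit, lay below background on both probe sets. One of these gave 0.34 ± 0.06 without CREB3L1 replicate 3 (adjusted p = 0.0497), at levels from which no fold is given.

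Pmm2, the main phosphomannomutase of glycosylation, was read by 2 probe sets above background that parted on CREB3L1 replicate 3. The brighter read 11.31, 11.42 and 3.73 in CREB3L1 cells, against 10.79, 11.36 and 9.87 in untransfected cells. The other read 9.33, 9.30 and 10.00 in CREB3L1 cells, against 9.09, 9.32 and 8.96 in untransfected cells. On that array the first was the lowest and the second the highest of the 6 values, and the differences were -1.86 ± 2.23 and 0.42 ± 0.22 (adjusted p = 0.9998 and 0.732). Without it they were 0.69 ± 0.43 and 0.20 ± 0.11, both positive and neither past the test.

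**Figure D3:**
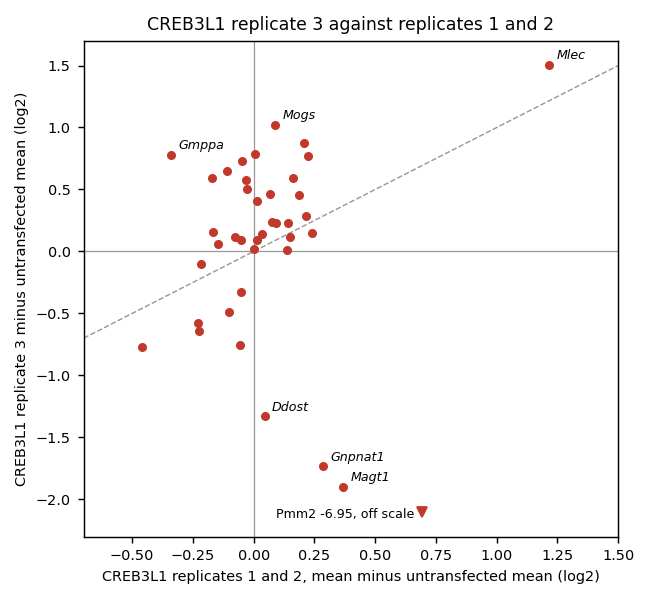
For each of the 40 N-glycan genes above background, the value of CREB3L1 replicate 3 (vertical axis) against the mean of CREB3L1 replicates 1 and 2 (horizontal axis), each minus the untransfected mean on the log2 scale, with the dashed line marking equal values. Mlec lies near the line, while Ddost, Gnpnat1, Magt1 and, off the scale at -6.95, Pmm2 lie far below it and Mogs, Alg8, Ganab and Gmppa above it.

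Over the 40 members above background, CREB3L1 replicate 3 was the highest of the 6 arrays for 24 and the lowest for 10. Over all 7714 measured genes above background it was the highest for 39.1% and the lowest for 31.3%. It differed from the mean of CREB3L1 replicates 1 and 2 by more than 0.5 for 15 members, which is 37.5%, against 30% of those genes. The median SD within the CREB3L1 group was 0.238 for the members, against 0.08 within the untransfected group, and 0.187 and 0.094 for all genes above background. The median member lay 0.04, 0.02 and 0.15 above its untransfected mean on CREB3L1 replicates 1, 2 and 3, while the median gene lay 0.03 above on replicate 3. The 3′ to 5′ gap of the control transcripts moves with this array, and its part in the values of the members was not tested.

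Mannose trimming and Golgi maturation held no called member. Man2a1, Golgi mannosidase II, read 12.02, 12.12 and 12.04 in CREB3L1 cells, against 11.88, 11.93 and 11.95 in untransfected cells. The groups did not overlap, and the difference of 0.14 ± 0.04 did not pass the test (adjusted p = 0.317). A second Man2a1 probe set gave 0.15 ± 0.17, and 0.34 ± 0.06 without CREB3L1 replicate 3 (adjusted p = 0.0578). Man1b1, an ER mannosidase tied to disposal of misfolded glycoproteins, read 10.48, 10.50 and 10.22 in CREB3L1 cells, against 10.50, 10.54 and 10.59 in untransfected cells. The groups overlapped, and the difference was -0.14 ± 0.09 (adjusted p = 0.873), or -0.05 ± 0.04 without CREB3L1 replicate 3. The Golgi mannosidase I genes Man1a1 and Man1a2 were not above background in either group.

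Among the branching and capping enzymes, Fut8, which adds the core fucose, read 10.50, 10.38 and 10.02 in CREB3L1 cells, against 10.73, 10.70 and 10.56 in untransfected cells. All CREB3L1 arrays were below all untransfected arrays, at a difference of -0.36 ± 0.14 that did not pass the test (95% interval -0.70 to -0.02, adjusted p = 0.475). Without CREB3L1 replicate 3 it was -0.22 ± 0.07 (adjusted p = 0.233). Mgat2, an N-acetylglucosaminyltransferase that starts the second branch, read 13.50, 13.70 and 13.51 in CREB3L1 cells, against 13.12, 13.50 and 13.46 in untransfected cells, a difference of 0.21 ± 0.12 (adjusted p = 0.847). Mgat1, which starts the first branch, and B4galt1, a galactosyltransferase, overlapped between groups at 0.17 ± 0.19 and 0.04 ± 0.04, and gave -0.03 ± 0.08 and 0.02 ± 0.05 without CREB3L1 replicate 3. Mgat5, which makes the branch most studied in tumour spread, and St6gal1, a sialyltransferase, lay below background on every array and probe set, so no change in them could be read.

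**Figure D4:**
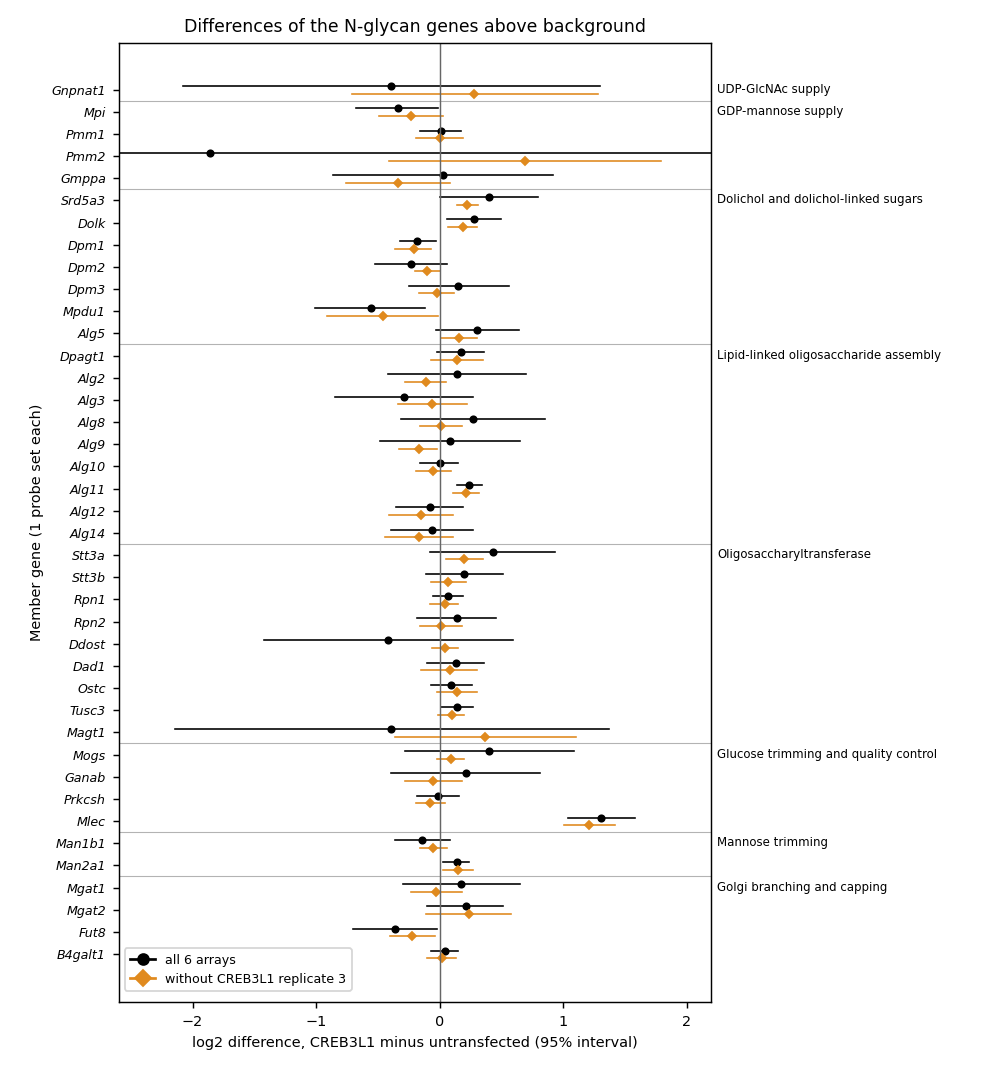
Log2 difference, CREB3L1 minus untransfected, with its 95% interval for the 40 N-glycan genes above background, grouped by role, with all 6 arrays in black circles and without CREB3L1 replicate 3 in orange diamonds (the Pmm2 interval with 6 arrays runs past the axis, from -7.46 to 3.75). Mlec is the 1 gene whose intervals lie wholly above 1, and most orange intervals are shorter than the black ones.

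Other genes of the pathway were read from a list of 46, of which 44 were measured. With all 6 arrays 0 were higher and 0 lower by limma, and 4 had an unadjusted p below 0.05, which is 9.09%, where 14% of all measured genes had. Without CREB3L1 replicate 3, 0 were higher and 2 lower, against 2.02% and 3.7% of all measured genes. These counts take the brightest probe set of each gene. Without that array a dimmer probe set also passed for Pdia3 (0.30 ± 0.05, adjusted p = 0.0442) and for Nus1 (-0.37 ± 0.05, adjusted p = 0.0252). The brightest probe sets of these genes gave 0.16 ± 0.04 and -0.06 ± 0.04 and did not pass. Gmds, the dehydratase that makes GDP-fucose from GDP-mannose, read 9.81, 9.71 and 9.49 in CREB3L1 cells, against 10.11, 10.06 and 10.03 in untransfected cells. The groups did not overlap, and the difference was -0.40 ± 0.09 with 6 arrays (adjusted p = 0.150) and -0.31 ± 0.05 without replicate 3 (adjusted p = 0.0373). It lies upstream of Fut8, which uses GDP-fucose. Of the other GDP-fucose genes on the list, Gfus gave -0.04, Fcsk -0.26, Fpgt 0.03 and the transporter gene Slc35c1 0.08 without CREB3L1 replicate 3. None of these passed the test. Cmas, which activates sialic acid, read 11.58, 11.49 and 11.86 in CREB3L1 cells, against 11.79, 11.81 and 11.82 in untransfected cells. CREB3L1 replicates 1 and 2 were below and replicate 3 above the untransfected arrays, and Cmas passed the test without that array at -0.27 ± 0.04 (adjusted p = 0.0418). The Gmds and Cmas calls were lost without replicate 3 of both groups, at adjusted p of 0.0541 and 0.0854.
The lectin chaperones that hold glycoproteins in the folding cycle did not pass the test. Canx, calnexin, had 3 probe sets above background. The brightest read 13.65, 13.64 and 12.73 in CREB3L1 cells, against 13.48, 13.51 and 13.22 in untransfected cells. The next read 13.05, 13.09 and 13.36 in CREB3L1 cells, against 12.93, 12.94 and 13.03 in untransfected cells. Replicate 3 was the lowest array of each group on the first and the highest of each group on the second, and the groups overlapped on the first alone of these 2. The dimmest read 10.12, 10.36 and 5.91 in CREB3L1 cells, against 9.78, 9.98 and 8.76 in untransfected cells, again with replicate 3 lowest in each group. The differences were -0.06 ± 0.28, 0.20 ± 0.09 and -0.71 ± 1.29, and without CREB3L1 replicate 3 they were 0.24, 0.10 and 0.74, all positive (adjusted p = 0.355, 0.447 and 0.537). Calr, calreticulin, read 12.36, 12.44 and 10.40 in CREB3L1 cells, against 12.45, 12.22 and 11.86 in untransfected cells. Its groups overlapped, and its difference was -0.44 ± 0.60, and 0.23 ± 0.17 without CREB3L1 replicate 3 (adjusted p = 0.820). These 2 genes were named after their values were seen.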

How the data were processed

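Per the submitters' processing notes, the authors made their deposited log2 values by RMA with Partek 6.6. No source used here gives the log base or the probe-level settings, and values of 0.27 to 17.22 with array medians of 2.97 to 3.06 were taken as log2. Groups came from the label naming the transfected gene. Of 31099 probe sets, 57 controls were set aside. Symbols came from GEO's platform annotation, and 20826 probe sets with 1 symbol were named. Background was set at a log2 value of 5, since the 18 named olfactory receptor probe sets fell short of the 20 required for a level based on them. The comparison used lmFit and eBayes (no trend, two-sided) of limma 3.58.1 under R 4.3.3. Intervals are 95% moderated intervals. With 3 arrays per group, their number limits the precision.

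The members and lists were chosen with earlier results of these data known. Every measured member is named. Array values are given for members past the threshold with 6 arrays or without CREB3L1 replicate 3. Where a role had none, they are given for the 2 with the smallest p above background. Other genes of the pathway were to be named on passing either fit. Krtcap2, Tmem258, Ost4, Pdia3, Nus1 and the GDP-fucose genes beside Gmds were named outside this rule. So were Canx, Calr, B4galt5 and Nagk. Array values of further members, and the short promoter elements, were added after the values and the searches for the full elements were seen. On simulated data for this comparison with 31042 probe sets, the fit recovered 20%, 50%, 80% and 92% of log2 changes of 0.5, 1, 2 and 4 (50 each), with 8 false calls. The changed probe sets were all drawn from those above background, so the recovery rates hold for such probe sets only. The simulated errors were independent, with the same spread on all arrays of a probe set, and held no outlying array like CREB3L1 replicate 3. Recovery and false calls with such an array were not tested. Alternatives were normalisation, a filter on dim probe sets, variance models, array weights, averaging probe sets and leaving out arrays. Leaving out replicate 3 of both groups was added after the data were seen.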

Additional observations from a re-analysis of the deposited data

How the results depend on the processing

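With all arrays 132 probe sets were higher and 299 lower. Array weights gave 600 and 952, the test without moderation 9 and 65, a mean-variance trend 79 higher, and leaving out replicate 3 of both groups 539 and 810. Leaving out 1 array gave 28 to 479 higher and 116 to 756 lower, with the highest of each without CREB3L1 replicate 3. Members higher, 1 with all arrays, numbered 2 with array weights (Mlec and Alg11), 0 with the mean of all probe sets, 0 in the test without moderation, and 0 to 2 with 1 array left out. No member was lower in any of the 15 alternatives. Of the other pathway genes, array weights gave 1 higher (B4galt5) and 2 lower (Gmds and Cmas), leaving out replicate 3 of both groups 1 higher (B4galt5) and 1 lower (Nagk), and leaving out 1 array 0 higher and 0 to 2 lower. B4galt5, a galactosyltransferase, differed by 0.43 ± 0.07 with all arrays (adjusted p = 0.0641), and Nagk, a kinase of N-acetylglucosamine, by -0.56 ± 0.24 (adjusted p = 0.591). Both were chosen after their values were seen. Mlec kept its call in 9 of 15 alternatives, at adjusted p from 0.000973 to 0.374 over all 15. The median difference of the members ran from 0.017 to 0.12. The SD of the members' array medians was 0.136, a spread of values between arrays that is not a like measure for these differences. No paired analysis was possible because the labels give no replicate numbers, and those used here only follow the order of the samples. Signal limits 8 members below background in both groups, for which no change could be read.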
